A study of Mus musculus with 6 samples.

Results

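The 9 genes described here encode proteins that fat tissue releases into the blood or its surroundings, often grouped as adipokines: Adipoq, Lep, Retn, Enho, Nampt, Apln, Metrnl, Nrg4 and Lcn2. They were chosen by name, and all 9 were found among the 35275 genes of the table and passed the filter on low values, which left 14383 genes to test. Their mRNA was measured by RNA sequencing of epididymal fat, a visceral depot, from male mice of the C57BL/6 strain. The 3 control samples are labelled Tfrcfl/fl, which means that both copies of the transferrin receptor gene carry loxP sites, and the 3 knockout samples are labelled TfrcAKO. AKO is commonly read as adipocyte knockout, but the labels neither spell it out nor name the Cre line. All mice of both groups began a 60% fat diet at 2 months of age and were sampled after 10 weeks, at 4.5 months, so the comparison holds only for mice on that diet.

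Adipokines act on distant organs and within the depot. Adiponectin circulates in large multimers and raises insulin sensitivity through its receptors, while leptin reports the size of the fat stores to the hypothalamus and reduces food intake. Expression of adiponectin is usually lower in obesity, and that of leptin higher. Of the other members, apelin acts on blood vessels and neuregulin 4 through receptors of the ErbB family. Lipocalin 2 binds the siderophores with which bacteria gather iron.

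The stretches before the transcription start of the 3 hormone genes with the highest levels in knockout tissue are shown. Their part in any change of level was not tested. The stretches are from RefSeq, build GRCm38.p6, plus strand, 5′ to 3′, and RefSeq promoter windows were matched by symbol for 8 of the 9 members. The window of Adipoq is chr16:23146286-23146535, that of Lep chr6:29059971-29060219 and that of Retn chr8:3655520-3655769. Capitals mark matches on either strand to CCAAT or to TTGCGCAA, a palindrome bound by C/EBP factors.
Adipoq: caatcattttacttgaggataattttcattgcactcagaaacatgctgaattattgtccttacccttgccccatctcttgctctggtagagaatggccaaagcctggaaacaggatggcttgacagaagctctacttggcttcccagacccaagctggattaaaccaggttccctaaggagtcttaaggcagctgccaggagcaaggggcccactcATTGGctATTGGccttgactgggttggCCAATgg
Lep: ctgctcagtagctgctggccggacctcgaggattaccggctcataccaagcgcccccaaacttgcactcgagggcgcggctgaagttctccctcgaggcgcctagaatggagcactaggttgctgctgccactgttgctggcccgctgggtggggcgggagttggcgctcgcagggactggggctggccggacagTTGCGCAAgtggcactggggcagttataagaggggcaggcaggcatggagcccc
Retn: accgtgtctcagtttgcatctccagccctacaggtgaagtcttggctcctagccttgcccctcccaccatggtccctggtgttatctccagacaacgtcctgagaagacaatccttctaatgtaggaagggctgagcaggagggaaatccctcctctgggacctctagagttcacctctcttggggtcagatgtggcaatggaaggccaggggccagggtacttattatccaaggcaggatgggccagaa
TTGCGCAA was found in Lep, 55 bases before the start, and in none of the other 7 windows, and 0.164% of 32851 promoter windows of 250 bases held it. CCAAT, added to the search after the windows had been seen, was found 3 times in Adipoq and in none of the other 7 windows, and 33.8% of all windows held it. The element bound by PPAR with RXR, a direct repeat of AGGTCA spaced by 1 base (searched as an exact match; in 0.0335% of all windows), TATAAA (12.4%) and CACGTG (6.02%) matched in no member's window. ACGTG, which overlaps CACGTG, was found in Nampt and Nrg4 and in 16.6% of all windows. TTNNGCAA, which also takes in TTGCGCAA, was found in Lep and Lcn2 and in 9.56% of all windows. The windows precede the start that RefSeq gives, which need not be the first base of the deposited gene: those of Nrg4 and Metrnl lie inside it, and 197 of the 250 bases of the Lcn2 window are exonic in GENCODE M21. A match is a description of the letters and shows no binding.

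Of the 9 genes, 5 rose in knockout tissue (Adipoq, Retn, Enho, Apln and Nrg4), 1 fell (Metrnl) and 3 did not pass the test (Lep, Nampt and Lcn2). Calls were made with limma at an adjusted p under 0.05 over all tested genes. At that threshold 43.5% of all 14383 genes were called, 21.9% higher and 21.6% lower, so a call by itself does not set a member apart. Members had a median log2 fold change of 1.23, against −0.03 for all tested genes. The median was 1.38 for the 20 mature adipocyte markers described below, so a rise of this size was not particular to the members. Values are FPKM, fragments per kilobase of gene length and per 1000000 assigned reads, so levels can be compared between genes. Fold changes are on the log2(FPKM + 0.5) scale, which understates changes of genes with low values.

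The libraries held 25252839 to 30650624 reads assigned to genes, and the members drew between 51 reads (Enho in control replicate 2) and 65092 reads (Lep in knockout replicate 1). Knockout replicate 3 stood apart on the first principal component, at 60.9 against 21.7 and 25.2 for the other knockout samples and −41.7 to −28.6 for control. The targeted gene, Tfrc, read 11.1, 13.2 and 11.9 FPKM in control and 7.10, 8.27 and 9.50 FPKM in knockout tissue. The groups did not overlap, and Tfrc fell by 0.52 ± 0.12 on the log2 scale (SE; limma adjusted p = 0.0147, but 0.0596 without control replicate 2 and 0.0527 without control replicate 3). The 20 mature adipocyte markers summed to 10518 to 13882 FPKM in control and 22243 to 30077 FPKM in knockout tissue. Of them 19 rose, against 21.9% of all tested genes. The 18 macrophage markers summed to 8415 to 10157 and to 1868 to 4491 FPKM, and 16 of them fell, or 6 without control replicate 2 and 10 without control replicate 3. No marker of either list was at 0. In whole tissue a change in the number of cells of a type and a change in RNA per cell cannot be told apart. Markers of the neighbouring epididymis and testis were near 0: 11 genes summed to at most 0.504 FPKM in any control and 3.20 FPKM in any knockout sample.

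**Figure D1:**
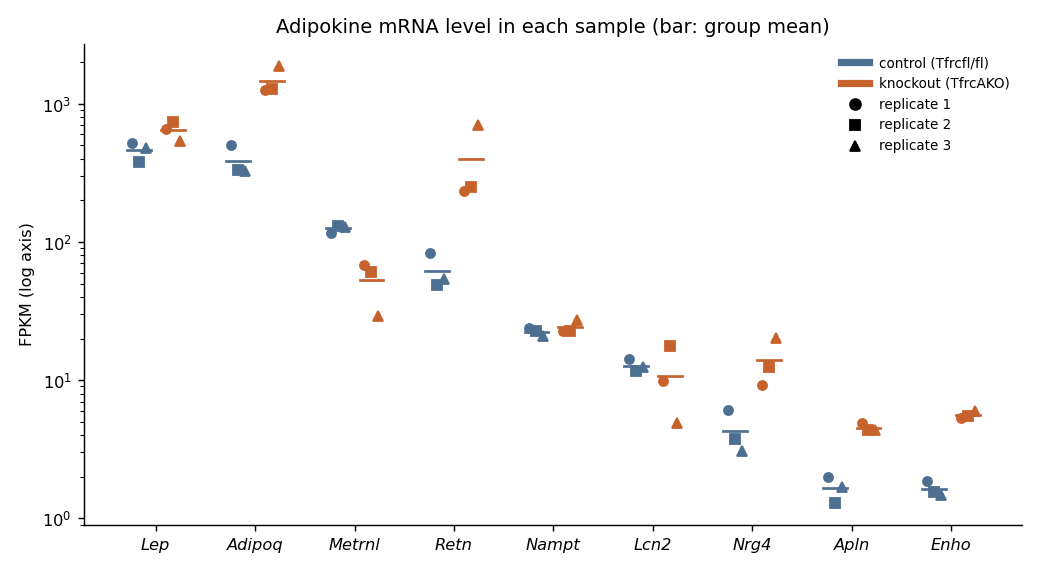
FPKM of each adipokine gene in each of the 6 samples, on a log axis, with control in blue, knockout in orange and a bar at each group mean. Lep lies above Adipoq in the 3 control samples and below it in the 3 knockout samples, and Nampt and Lcn2 are the genes whose groups overlap.

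Adipoq, the adiponectin gene (ENSMUSG00000022878, mm10 chromosome 16, 23146536 to 23158028, plus strand), measured 499, 329 and 326 FPKM in the control samples, replicates in order. In the knockout samples it measured 1249, 1268 and 1875 FPKM. Each knockout sample was above every control sample, and knockout replicate 3 was highest. The group mean was 3.81-fold higher in knockout tissue, with a log2 fold change (± SE) of 1.93 ± 0.24 at a limma adjusted p of 0.00373. Among all genes of the table Adipoq ranked 149 by mean FPKM in control and 26 in knockout tissue.

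Lep, the leptin gene (ENSMUSG00000059201, chromosome 6, 29060220 to 29073877, plus strand), measured 517, 378 and 481 FPKM in control tissue, replicates in order, and 652, 734 and 533 FPKM in knockout tissue. The groups did not overlap, but the lowest knockout value, in replicate 3, lay close to the highest control value. The log2 fold change was 0.48 ± 0.17 (SE), with an unadjusted 95% interval of 0.07 to 0.89 and a limma adjusted p of 0.0620. Without knockout replicate 3 it was 0.60, with a limma adjusted p of 0.0134. Groups that do not overlap were found for 60.1% of all tested genes, 29.1% higher and 31% lower in the knockout, and for 7 of the 9 members.

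Retn encodes resistin, a small cysteine-rich hormone that in mice is made mainly by adipocytes (ENSMUSG00000012705, chromosome 8, 3655770 to 3660110, plus strand). The control samples had 82.4, 49.0 and 53.9 FPKM, and the knockout samples 235, 249 and 704 FPKM. All 3 knockout samples were above control, and replicate 3 was far above the other two. The log2 fold change was 2.51 ± 0.44 (SE, limma adjusted p = 0.00705), the largest among the members, and 2.00 without knockout replicate 3. The mean over knockout replicates 1 and 2 was 242 FPKM, against 61.8 ± 18.1 FPKM (SD, n = 3) in control.

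3 members with low levels rose as well. Enho (ENSMUSG00000028445, chromosome 4, 41638144 to 41640324, minus strand) encodes the precursor of adropin, a peptide linked to energy balance. It was at 1.86, 1.54 and 1.47 FPKM in control and 5.32, 5.46 and 5.96 FPKM in knockout tissue, replicates in order. The knockout samples lay close together, and the log2 fold change (± SE) of 1.52 ± 0.11 at a limma adjusted p of 0.00292 had the smallest standard error among the members that rose. Its exons overlap those of Dnaic1 on the other strand, whose reads could not be separated without the strand setting; Dnaic1 itself was at no more than 0.151 FPKM in any sample.

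Apln encodes apelin, the ligand of the receptor Aplnr and a factor in vessel growth (ENSMUSG00000037010, chromosome X, 48025146 to 48034853, minus strand). Its control values were 2.00, 1.29 and 1.68 FPKM, and its knockout values 4.88, 4.34 and 4.35 FPKM. The groups were well separated, and knockout replicate 3 did not stand out. Apln rose by 1.23 ± 0.14 on the log2 scale (SE, limma adjusted p = 0.0037). The 10 endothelial markers all rose, against 21.9% of all tested genes. These markers summed to 125 to 146 FPKM in control and 266 to 403 FPKM in knockout tissue. Their part in the change of Apln was not tested.

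Nrg4 encodes neuregulin 4, a growth factor of the EGF family known to be released by brown and white fat (ENSMUSG00000032311, chromosome 9, 55220222 to 55326844, minus strand). It was at 6.09, 3.74 and 3.09 FPKM in control and 9.27, 12.4 and 20.02 FPKM in knockout tissue. Knockout replicate 3 was again highest, and the lowest knockout value was above the highest control value. The log2 fold change was 1.56 ± 0.32 (SE, limma adjusted p = 0.0106) and 1.27 without knockout replicate 3. Exons of Nrg4 overlap those of Gm15625 and Fbxo22 on the other strand, the latter at 15.9 ± 0.933 FPKM in control and 24.2 ± 3.39 FPKM in knockout tissue (SD, n = 3 each). Fbxo22 also rose, by 0.58 ± 0.11 (SE, limma adjusted p = 0.00817), and its part in the value of Nrg4 was not tested.

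Metrnl was the member that fell. It encodes meteorin-like, a secreted protein made in fat and muscle and by macrophages (ENSMUSG00000039208, chromosome 11, 121701544 to 121716306, plus strand). Control replicates 1, 2 and 3 were at 116, 131 and 129 FPKM, and knockout replicates 1, 2 and 3 at 68.2, 60.3 and 29.3 FPKM. Every knockout sample was below every control sample, and replicate 3 was lowest. The mean was 2.38-fold lower in knockout tissue, with a log2 fold change (± SE) of −1.33 ± 0.30 at a limma adjusted p of 0.0137. Without knockout replicate 3 the log2 fold change was −0.96. The call was lost without control replicate 2 (limma adjusted p = 0.0546) or control replicate 3 (limma adjusted p = 0.0516).

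For Nampt and Lcn2 the groups overlapped. Nampt encodes nicotinamide phosphoribosyltransferase, the rate-limiting enzyme of NAD salvage, which is also found outside cells under the name visfatin (ENSMUSG00000020572, chromosome 12, 32820335 to 32853369, plus strand). It was at 23.7, 22.8 and 20.9 FPKM in control and 22.5, 22.7 and 27.2 FPKM in knockout tissue. The log2 fold change was 0.10 ± 0.10 (SE, limma adjusted p = 0.435), with an unadjusted 95% interval of −0.13 to 0.33, the narrowest among the members.

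Lcn2 (ENSMUSG00000026822, chromosome 2, 32384633 to 32387797, minus strand) was at 14.2, 11.6 and 12.4 FPKM in control and at 9.78, 17.5 and 4.93 FPKM in knockout tissue. The knockout samples ranged from below to above all control samples. The log2 fold change was −0.40 ± 0.40 (SE, limma adjusted p = 0.445), and its interval of −1.34 to 0.55 was wide enough to hold a change of either direction. Without knockout replicate 3 it was 0.05. Of 12 neutrophil markers, cells that store lipocalin 2, 4 passed the filter, of which 2 fell and none rose. Without any single control sample none of the 4 fell. Over all tested genes 21.6% fell and 21.9% rose. The 12 neutrophil markers summed to 30.1 to 32.6 FPKM in control and 22.1 to 41.4 FPKM in knockout tissue, with S100a8 making up most of it. Ly6g, a defining neutrophil marker, had a mean of 0.012 FPKM in control and was listed at 0 in the knockout samples.

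**Figure D2:**
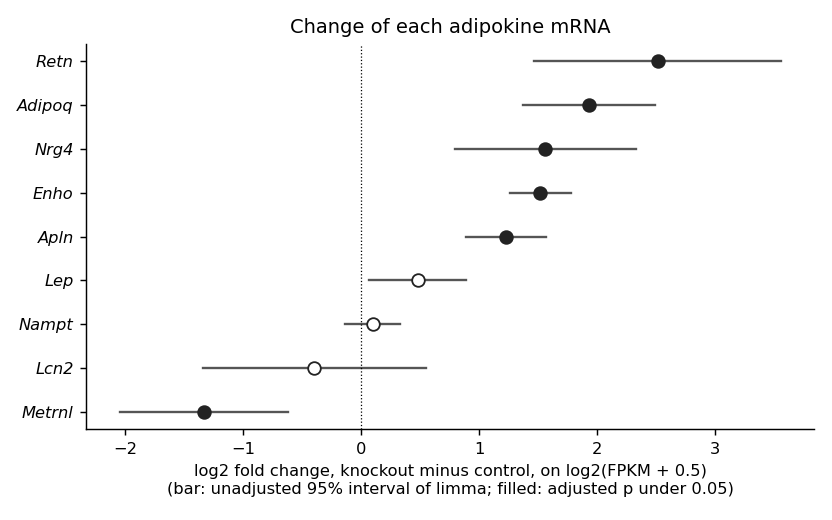
Log2 fold change of each adipokine gene, knockout minus control, with the unadjusted 95% interval of limma; filled points passed an adjusted p of 0.05. Retn, Adipoq, Nrg4, Enho and Apln lie to the right of 0 and Metrnl to the left, while Lep, Nampt and Lcn2 are open points between 0.48 and −0.40.

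The order of the members by level differed between the groups. In control tissue it ran Lep, Adipoq, Metrnl, Retn, Nampt, Lcn2, Nrg4, Apln and Enho. The ranges of neighbours in that order overlapped for Lep with Adipoq and for Apln with Enho, and for no other pair. Lep was nevertheless above Adipoq in 3 of 3 control samples. In knockout tissue the order was Adipoq, Lep, Retn, Metrnl, Nampt, Nrg4, Lcn2, Enho and Apln. There Adipoq was above Lep in 3 of 3 samples without overlap, while the ranges of Lep and Retn, of Nrg4 and Lcn2, and of Lcn2 and Enho overlapped. Retn passed Metrnl: it ranked 1042 among all genes in control and 121 in knockout tissue, and Metrnl ranked 455 and 1235.

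Summed over the 9 genes, adipokine mRNA was at 1262, 928 and 1029 FPKM in control and 2256, 2374 and 3204 FPKM in knockout tissue. Adipoq made up 39.5%, 35.4% and 31.7% of that sum in control and 55.4%, 53.4% and 58.5% in knockout tissue. Lep made up 41.0%, 40.8% and 46.7% in control and 28.9%, 30.9% and 16.6% in knockout tissue. Both shares separated the groups, and the Lep share was lowest in knockout replicate 3. Shares of 1 sum depend on each other, and Lep itself averaged 459 FPKM in control and 640 FPKM in knockout tissue. The Adipoq share was 20.2 percentage points higher in the knockout (standard error 2.70), and the Lep share fell by 17.3 points (standard error 4.87). An exact two-sided permutation test gave p = 0.1 for each, which is the smallest value that 3 samples against 3 can give. Metrnl took 11.95% ± 2.51 of the sum in control and 2.16% ± 1.10 in knockout tissue, and Retn 5.68% ± 0.734 and 14.3% ± 6.65 (SD, n = 3 each).

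Each hormone was then set against Adipoq in the same sample. Per 100 FPKM of Adipoq there were 104, 115 and 147 FPKM of Lep in control and 52.2, 57.9 and 28.4 in knockout tissue. Put the other way, there was 0.837 ± 0.146 FPKM of Adipoq per FPKM of Lep in control and 2.39 ± 0.983 FPKM in the knockout samples (SD, n = 3 each). The log2 ratio of Lep to Adipoq fell by 1.45 (standard error 0.35) and by 1.13 without knockout replicate 3. Retn was the member that rose relative to Adipoq: 16.5, 14.9 and 16.5 FPKM per 100 FPKM of Adipoq in control and 18.8, 19.7 and 37.5 in knockout tissue. The 3 control values of Retn were close together, and without knockout replicate 3 the difference in the log2 ratio was 0.26, against 0.58 (standard error 0.33) with it.

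**Figure D3:**
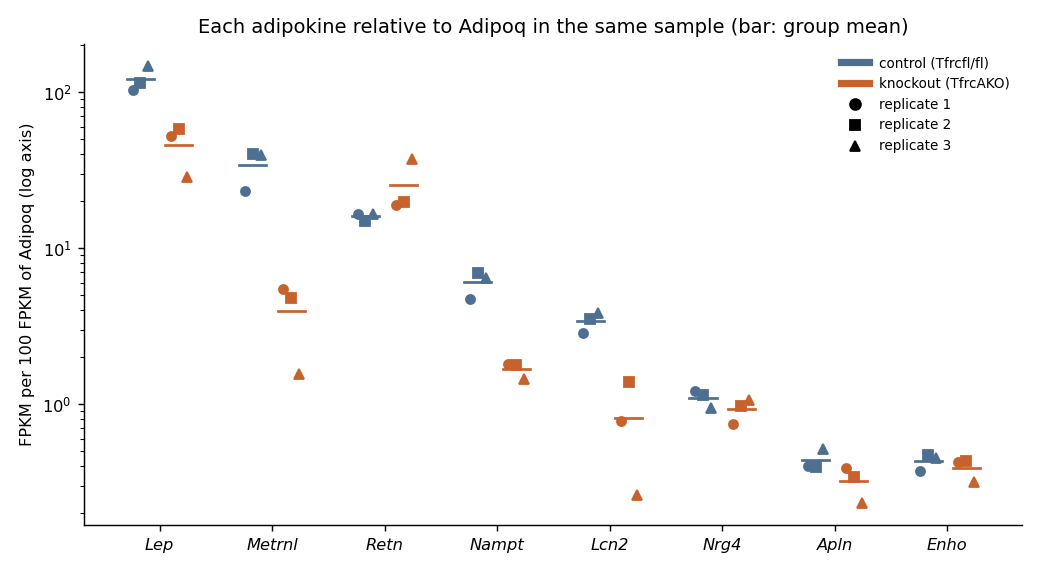
FPKM of each adipokine per 100 FPKM of Adipoq in the same sample, on a log axis, with control in blue, knockout in orange and a bar at each group mean. Lep, Metrnl, Nampt, Lcn2 and Apln lie lower in all knockout samples, Retn lies higher, and Nrg4 and Enho overlap.

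Metrnl moved farthest against Adipoq, from 23.3, 39.9 and 39.5 FPKM per 100 FPKM of Adipoq in control to 5.46, 4.76 and 1.56 in knockout tissue, and its log2 ratio fell by 3.26 (standard error 0.62). The log2 ratio of Lcn2 fell by 2.33 (standard error 0.69), or by 1.69 without knockout replicate 3, and that of Nampt by 1.83 (standard error 0.20). Nampt, whose own level overlapped between the groups, went from 6.03 ± 1.14 to 1.68 ± 0.200 FPKM per 100 FPKM of Adipoq (SD, n = 3 each). Apln was at 0.402, 0.393 and 0.516 FPKM per 100 FPKM of Adipoq in control and 0.391, 0.343 and 0.232 in knockout tissue, groups that barely separated.

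For Enho and Nrg4 the plain ratio overlapped between the groups. Enho was at 0.431 ± 0.051 FPKM per 100 FPKM of Adipoq in control and 0.392 ± 0.064 in the knockout, and Nrg4 at 1.10 ± 0.139 and 0.929 ± 0.168 (SD, n = 3 each). With 0.5 FPKM added to each value both log2 ratios no longer overlapped, at −0.41 (standard error 0.19) for Enho and −0.37 (standard error 0.17) for Nrg4, because the addition weighs more on genes with low values. Without knockout replicate 3 these were −0.26 and −0.47. Of the 8 hormones set against Adipoq, the plain ratio was thus lower without overlap for 5, higher for 1 and overlapping for 2. Over all 14382 other tested genes, the plain ratio was lower without overlap for 95.4% and higher for 0.229%. A lower ratio to Adipoq is therefore the background for the whole tissue. The exact two-sided permutation test on log2(FPKM + 0.5) ratios gave p = 0.1 for each of the 8, again the smallest it can give. On the plain log2 ratios the same permutation test gave p = 0.5 for Enho, 0.3 for Nrg4 and 0.1 for each of the others.

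Most other adipocyte genes were also lower relative to Adipoq, though less often and by less than genes in general. Of the 20 mature adipocyte markers, a list that holds no member, 16 were lower relative to Adipoq without overlap and 2 higher, against 98.1% and 0.104% of all genes on the same log2(FPKM + 0.5) scale. Their median difference was −0.55, against −1.08 for the 8 hormones and −1.96 for all genes. Pck1 (1.41) and Adrb3 (1.34), named here after their values were seen, had the largest positive differences in the log2 ratio to Adipoq among these markers, and the fatty acid transporter Cd36 had the lowest (−2.13).

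Set against the mean log2 value of the same 20 markers, the members fell into 3 sets. Adipoq and Retn were higher in every knockout sample, by 0.47 (standard error 0.08) and 1.05 (standard error 0.34). Enho, Nrg4 and Apln overlapped, with differences of 0.06, 0.10 and −0.23 (exact two-sided permutation p = 0.7, 0.6 and 0.5). These are on the log2(FPKM + 0.5) scale, where the addition weighs more on these 3 low genes than on the markers. With limma-voom on the recovered reads their log2 fold changes were 1.77, 1.66 and 1.46, against a median of 1.40 for the 20 markers. Lep, Nampt, Lcn2 and Metrnl were lower, by −0.98 (standard error 0.33), −1.36 (standard error 0.16), −1.86 (standard error 0.66) and −2.79 (standard error 0.60). Without knockout replicate 3 the difference for Lcn2 was −1.22. Over all tested genes, 94.6% were lower than these markers without overlap and 0.445% higher. The exact permutation p was 0.1 for each of the 6 that did not overlap.

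Set against the mean of the 18 macrophage markers, Metrnl did not separate the groups. Its log2 ratio was −0.49, −0.49 and −0.39 in control and −0.49, −0.48 and −0.51 in knockout tissue. The ranges overlapped, and the difference was −0.04 (standard error 0.03; exact two-sided permutation p = 0.4). The other 8 members were higher relative to these markers in every knockout sample, from 0.90 for Lcn2 to 3.81 for Retn, as were 92.1% of all tested genes, against 1.32% lower. Metrnl kept nearly the same distance from the mean of the macrophage markers in the 6 samples, knockout replicate 3 included, and the part of these cells in its fall was not tested.

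**Figure D4:**
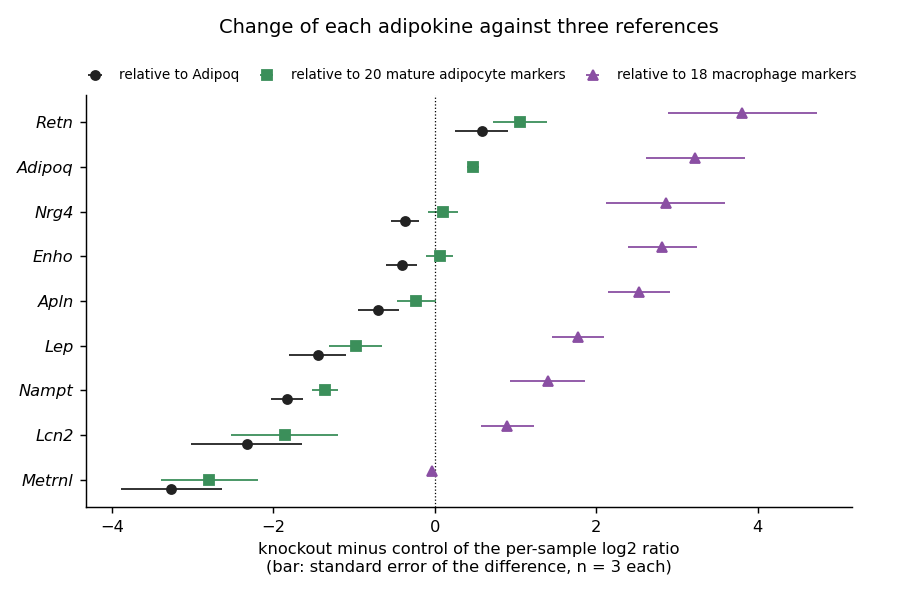
Difference between knockout and control in the log2 ratio of each adipokine to Adipoq (black), to the mean of 20 mature adipocyte markers (green) and to the mean of 18 macrophage markers (purple), with the standard error of the difference. Metrnl lies at −0.04 against the macrophage markers, and Enho and Nrg4 lie near 0 against the adipocyte markers.

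Among 8313 other genes whose mean reached 5 FPKM, those whose log2 values followed Adipoq most closely over the 6 samples were Egln1, Sspn, Chchd2 and Sucnr1, with Pearson r between 0.9995 and 0.9996. Egln1 encodes an iron-dependent prolyl hydroxylase that marks hypoxia-inducible factors for breakdown, and Sucnr1 the succinate receptor. The correlation takes no account of the size of a change. Egln1 was at 18.3, 16.3 and 16.1 FPKM in control and 23.9, 23.9 and 27.2 FPKM in knockout tissue. Sucnr1 was at 14.5, 10.3 and 10.1 FPKM in control and 30.5, 30.1 and 39.6 FPKM in knockout tissue. For Lep the closest genes were Irak2 and Trp53inp2 (r = 0.99 for each) and Tuba1a and Sema3c (r = 0.99 for each). For Lcn2 they were C1galt1 and Armc1 (r = 0.98 for each), Smad2 (0.97) and Tmem175 (0.96). These correlations are over 6 samples that share the split into 2 genotypes and the same library for both genes, so they describe likeness only.

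Receptors and binding partners of the hormones were mixed. Of 16 such genes 15 were tested, of which 4 rose and 3 fell, against 21.9% and 21.6% of all tested genes. The counts therefore do not set this list apart. The median log2 fold change of the 15 was −0.01. Adipor2, an adiponectin receptor, went from 66.8 ± 8.30 to 135 ± 19.1 FPKM (SD, n = 3 each). That was a log2 fold change (± SE) of 1.01 ± 0.14 at a limma adjusted p of 0.00411. Cdh13, the T-cadherin that binds adiponectin multimers, rose by 1.36 ± 0.20, and Slc22a17, a lipocalin 2 receptor, by 1.06 ± 0.09 (limma adjusted p = 0.00481 and 0.00297). Cap1, reported as a binding partner of human resistin, fell by 0.95 ± 0.15 (limma adjusted p = 0.00537). Adipor1, the other adiponectin receptor, did not pass the test, at −0.04 ± 0.08 (limma adjusted p = 0.653). The leptin receptor gene Lepr averaged 0.485 ± 0.082 FPKM in the control and 0.672 ± 0.120 FPKM in the knockout samples (SD, n = 3 each). Erbb4, the receptor of neuregulin 4, was listed at 0 in the control samples and averaged 0.011 FPKM in the knockout samples.

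Genes for the folding and release of adiponectin in the endoplasmic reticulum did not follow Adipoq as a group. The median of the 9 tested was −0.06. Of these, 2 rose and 1 fell, against 21.9% and 21.6% of all tested genes, so the counts do not set this list apart. Gstk1, also known as DsbA-L and tied to adiponectin multimer assembly, rose by 1.13 ± 0.17 and Ero1a, an oxidase of disulfide formation, by 0.33 ± 0.08, while Ero1b fell by 0.76 ± 0.16 (SE, limma adjusted p = 0.00485, 0.0207 and 0.0121). The chaperone Erp44, which retains adiponectin, did not pass the test, at −0.18 ± 0.10 (limma adjusted p = 0.196). Without any single control sample 1 of these genes rose, since Ero1a lost its call (limma adjusted p = 0.0575, 0.0575 and 0.0803 without control replicate 1, 2 and 3). Without control replicate 2 none fell (Ero1b, limma adjusted p = 0.0512).

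Around Nampt, 4 of 13 tested genes of NAD salvage and use rose and 1 fell, against 21.9% and 21.6% of all tested genes. The median of the 13 was 0.18. Cd38, an enzyme that consumes NAD, rose by 0.66 ± 0.09, and Nnmt, which methylates nicotinamide, by 0.89 ± 0.14 (SE, limma adjusted p = 0.00415 and 0.00544). Nadk, the NAD kinase, rose by 0.39 ± 0.09, and Parp1 fell by 0.25 ± 0.08 (SE, limma adjusted p = 0.0135 and 0.0374). Without control replicate 2 or 3 the numbers were 2 higher and 0 lower, and Nadk and Parp1 were among the calls lost (limma adjusted p = 0.0526 and 0.124 without control replicate 2, 0.0610 and 0.0574 without control replicate 3). Parp1 also lost its call without control replicate 1 or knockout replicate 2 or 3 and with no filter on low values (limma adjusted p = 0.0968, 0.0847, 0.0604 and 0.0659).

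Among 13 tested regulators of adipokine genes, 6 rose and 2 fell, against 21.9% and 21.6% of all tested genes. The median of the 13 was −0.09. Klf15, a factor of adipocyte differentiation, rose by 1.81 ± 0.22, Pparg, the master regulator of adipocytes, by 0.89 ± 0.20 and its partner Rxra by 0.45 ± 0.10 (SE, limma adjusted p = 0.00372, 0.0132 and 0.0119). Nfkb1, a subunit of the inflammatory factor NF-κB, fell by 0.44 ± 0.09 (limma adjusted p = 0.0115). Without control replicate 2 the numbers were 2 and 1, and without control replicate 3 they were 1 and 2. Pparg lost its call in both cases (limma adjusted p = 0.0537 and 0.0543), and Rxra without control replicate 3 (limma adjusted p = 0.05003).

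**Figure D5:**
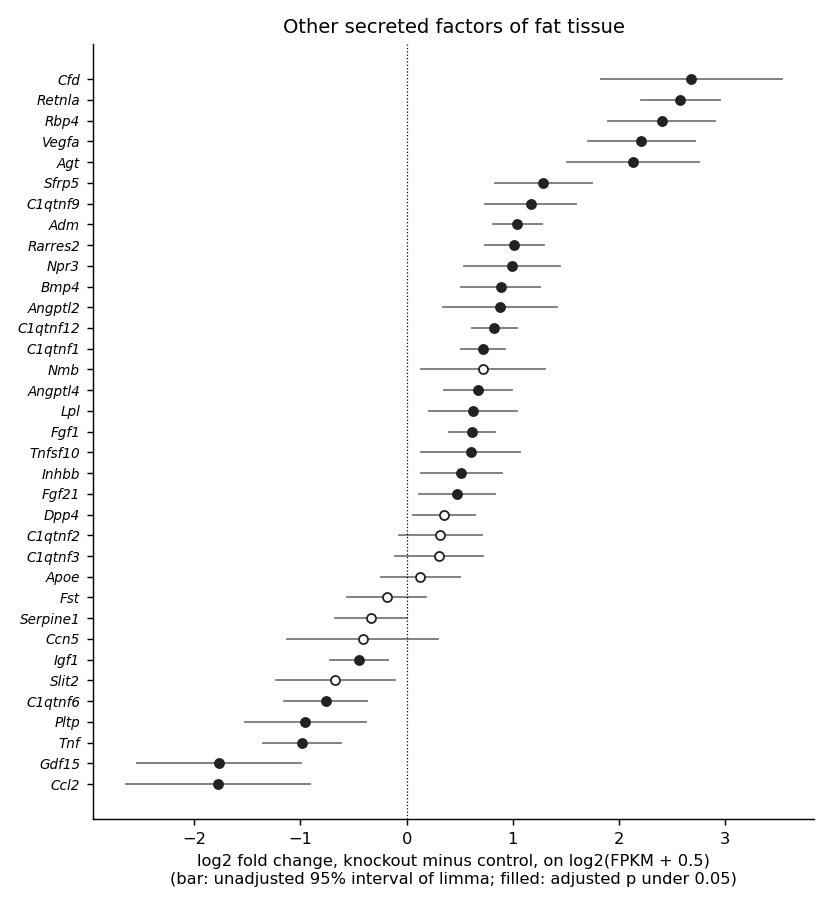
Log2 fold change, knockout minus control, of the 35 tested genes of a list of other factors secreted in fat tissue, with the unadjusted 95% interval of limma; filled points passed an adjusted p of 0.05. Cfd, Retnla, Rbp4, Vegfa and Agt lie above 2, and Gdf15 and Ccl2 lie below −1.7.

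Other factors that fat tissue secretes were listed separately, 39 genes of which 35 were tested. Of these, 20 rose and 6 fell, against 21.9% and 21.6% of all tested genes. Without control replicate 1 the numbers were 17 and 4, and without control replicate 2 or 3 they were 15 and 4. The median of the 35 was 0.62. Lpl and Npr3 on this list are also mature adipocyte markers here. Retnla, a secreted relative of resistin known from alternatively activated macrophages, was at 57.7, 42.6 and 61.8 FPKM in control and 354, 298 and 313 FPKM in knockout tissue. The macrophage markers fell in the same samples, and the cells that the Retnla mRNA came from were not tested. The knockout samples were alike for Retnla, whereas Retn was much higher in knockout replicate 3. Rbp4, the retinol-binding protein, was at 73.7, 42.4 and 52.6 FPKM in control and 271, 267 and 344 FPKM in knockout tissue, a log2 fold change (± SE) of 2.40 ± 0.21 at a limma adjusted p of 0.00339. Vegfa, the main growth factor of vessels, rose by 2.21 ± 0.21, and Adm, the vasodilator adrenomedullin, by 1.04 ± 0.10 (limma adjusted p = 0.00357 and 0.00343).

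The 6 secreted factors that fell with all samples included, named here after their values were seen, were Ccl2, Gdf15, Tnf, Pltp, C1qtnf6 and Igf1. Ccl2, which attracts monocytes, went from 42.3 ± 9.42 to 12.8 ± 5.70 FPKM, and Tnf, an inflammatory cytokine, from 2.99 ± 0.245 to 1.28 ± 0.300 FPKM (SD, n = 3 each). Gdf15, a hormone of cell stress, went from 19.5 ± 4.74 to 5.62 ± 2.38 FPKM (SD, n = 3 each). The macrophage markers also fell in these samples, and their part in these changes was not tested. Among other cell types, 4 of 11 progenitor and fibroblast markers fell and none rose (1 fell without any single control sample). Of all tested genes, 21.6% fell and 21.9% rose. Col3a1 was at −0.96 ± 0.25 (limma adjusted p = 0.0222), but its limma adjusted p was 0.0502, 0.0637 and 0.0815 without control replicate 1, 2 and 3. Of 9 mesothelial markers 7 rose, against 21.9% of all tested genes (5 without control replicate 2 and 6 without control replicate 3). Msln, 1 of the 7, rose by 0.75 ± 0.07 (SE, limma adjusted p = 0.00343).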

How the data were processed

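Total RNA of 6 samples, 3 per genotype, was extracted with Trizol and made into NEBNext Ultra libraries, per the labels' protocols. The submitters' processing notes name CASAVA, FastQC, STAR 2.5, HTSeq 0.6.1 and mm10; the sources used here do not give the annotation release or strand setting. The deposited table holds FPKM per gene, per the file headers, which the authors scaled so that FPKM times length in kilobases sums to 1000000 in each sample. Within each sample 100% of values above 0 were whole multiples, within 0.01, of the value of 1 read, which gave the reads per gene; 3 reads on a 2 kb gene equal 0.0489 to 0.0594 FPKM, a limit for counting error only. Gene length, in bases, was used as deposited. Replicates differed by more than counting noise (chi-square per degree of freedom 15.5 to 98.1). Whether the samples of a group came from different mice is not in the labels; p-values reflect only the spread among the samples, which may be technical.

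Genes at 0.5 FPKM or more in 3 or more samples were kept. Values were fitted as log2(FPKM + 0.5) with limma 3.58.1 (R 4.3.3, statmod 1.5.0; trend and robust moderation, two-sided) and adjusted by Benjamini-Hochberg over all tested genes. For ratios to Adipoq a limma fit over all genes had also been planned. Its p-values are not reported, because every gene then carries the deviations of Adipoq and the moderation took their variances as equal (prior degrees of freedom infinite, against 2.83 for log2 FPKM). Exact permutation tests planned beside it are given (Python 3.11.15, scipy 1.17.1). The members and the 12 other lists were chosen with earlier results of these data known. All 193 entries, members included, were found, by symbol, deposited name or synonym; 34490 of the 35275 identifiers were in the GENCODE M21 name table. Named were the members and Tfrc, up to 4 called genes with the smallest p per pathway list (or the 2 highest), the 2 highest per cell type list, and the 4 genes most correlated with Adipoq, Lep and Lcn2; other genes were named after their values had been seen. The fit was tested on simulated data.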

Additional observations from a re-analysis of the deposited data

How the results depend on the processing

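Pseudocounts of 0.1 and 1, a stricter filter (1 FPKM) and none, a replicate block, median-of-ratios scaling, limma-voom on the recovered reads and each sample left out in turn were tried. The call and direction of Adipoq, Retn, Enho, Apln, Nrg4 and Nampt were the same in every one. Lep passed the test in 1 of them, at 0.60 without knockout replicate 3, and otherwise ranged from 0.35 to 0.57 when a sample was left out. Metrnl ranged from −1.56 to −0.96 with a sample left out and did not pass the test at −1.30 (without control replicate 2) and −1.31 (without control replicate 3), so that the number of members called lower ranged from 0 to 1; the cause was not tested. Lcn2 ranged from −0.82 to 0.045, the latter without knockout replicate 3. With a sample left out, the number of genes called higher ranged from 1897 to 3063, against 3147 in all, and the number called lower from 1324 to 3064, against 3106; the lowest came without control replicate 3 (1897 higher, 1559 lower) and control replicate 2 (2047 higher, 1324 lower), and the cause was not tested. Same-numbered samples did not deviate together (correlations −0.24, 0.03 and −0.18), so the numbers are no pairing; with the replicate block 2270 genes were called higher and 2311 lower, and 5 members higher and 1 lower as without it. Genes that reversed were not called: with a sample left out Armc1 ranged from −0.10 to 0.028, Dcn from −0.21 to 0.044 and S100a8 from −0.26 to 0.30.

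Relative values depend on the reference by construction. With adipocyte markers in place of Adipoq, the differences were −0.98 for Lep, 1.05 for Retn, 0.060 for Enho, −1.36 for Nampt, −0.23 for Apln and 0.10 for Nrg4. With macrophage markers they were 1.78 for Lep, 3.81 for Retn, 2.82 for Enho, 1.40 for Nampt, 2.53 for Apln, −0.036 for Metrnl, 2.86 for Nrg4 and 0.90 for Lcn2. Counted as reads, the Adipoq share differed by 19.3 percentage points and the Lep share by −17.7. Enho, at 51 to 207 reads per sample, has the largest counting error among the members.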
